A study of Caenorhabditis elegans with 2 samples.

Results

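The regions described here were 280 peaks of a tagged zinc finger protein that lay in introns, away from the annotated starts of genes, on the autosomes of *Caenorhabditis elegans*. They were taken from 2234 peaks that the authors called, under their conservative setting, from both replicates combined. Of those, 2213 were on nuclear chromosomes and 1797 on autosomes. The summit, the base the peak caller marked as the top of a peak, fell inside the span of a protein-coding gene at 714 of the 1797, and in no exon of any gene at 398. Requiring more than 500 bp to every protein-coding gene start left 334, and removing those within 200 bp of a tRNA, snoRNA, snRNA or ncRNA gene left 280. The choice used positions alone, not signal. The gene holding the summit is called the host; 7 peaks lay inside the spans of 2 genes, and there the host was the gene whose transcript had the longer coding sequence.

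The samples were 2 biological replicates of 1 group, so no condition was compared. Both came from whole mid-stage embryos (1.5 hours per the labels, obtained by egg bleaching) of strain RW12279, whose ztf-23 gene carries a CRISPR insertion of 3 tags, TY1, EGFP and 3xFLAG. Chromatin was sonicated to 200 to 800 bp and precipitated with an antibody to GFP according to the description, although another label gives ztf-23 as the antibody. The embryos were not separated into cell types, so a site bound strongly in few cells and one bound weakly in many cannot be told apart. A control experiment is named in the labels and was not analysed here, and the sources used here give no read depth. The signal of a peak is the peak caller's own value, whose scale is not stated.

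Chromatin immunoprecipitation recovers the DNA that a protein touches, directly or through partners, and sequencing places it on the genome. Introns are removed from the RNA after transcription, and in worms long introns, often the early ones of a gene, can carry enhancers, promoters of shorter isoforms and other genes. They also hold many repeats, such as inverted and tandem repeats and remnants of transposons. Zinc fingers of the classical type read short stretches of DNA, usually several bases per finger.

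The sequences around 10 of the strongest of these summits are given first, because they show how unlike each other the strongest sites were. Each reaches 50 bp to either side of the summit, on the forward strand of WBcel235 (the assembly also called ce11), read from the RefSeq genome. In cyp-33C2 and M01F1.8 the capitals mark the arms of a perfect inverted repeat. In cmk-1 they mark a tandem repeat with a period of 22 bp. In larp-1 they mark the word CGCAGA, one of the words more frequent at the summits than beside them. In srt-52 they mark letters of the tRNA A box, TGGCNNAGT, and in Y57G11C.22 letters of the tRNA B box, GTTCGANNC, matched on both strands with the matches overlapping. In mdt-26, stim-1, scc-2 and brc-1 nothing is in capitals, because neither repeats of the set sizes, nor CGCAGA, nor the tRNA box letters were found. Capitals do not mark all that was searched: M01F1.8 also holds CGCAGA on the reverse strand, mdt-26 holds GAGAGAG and brc-1 holds GCACAC.
cyp-33C2: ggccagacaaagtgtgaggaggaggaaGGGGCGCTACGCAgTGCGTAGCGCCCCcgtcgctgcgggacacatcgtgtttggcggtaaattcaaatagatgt
M01F1.8: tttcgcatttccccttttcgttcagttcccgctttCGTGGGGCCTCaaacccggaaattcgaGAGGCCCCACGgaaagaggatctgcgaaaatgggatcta
cmk-1: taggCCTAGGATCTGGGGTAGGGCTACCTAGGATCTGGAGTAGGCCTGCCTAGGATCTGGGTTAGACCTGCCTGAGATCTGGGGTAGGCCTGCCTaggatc
larp-1: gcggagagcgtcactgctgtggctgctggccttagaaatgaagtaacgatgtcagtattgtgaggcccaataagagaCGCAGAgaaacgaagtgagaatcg
mdt-26: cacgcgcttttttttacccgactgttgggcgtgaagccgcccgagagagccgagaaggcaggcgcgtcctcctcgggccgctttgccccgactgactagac
srt-52: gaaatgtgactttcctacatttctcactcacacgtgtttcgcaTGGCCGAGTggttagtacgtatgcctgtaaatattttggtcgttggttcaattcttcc
stim-1: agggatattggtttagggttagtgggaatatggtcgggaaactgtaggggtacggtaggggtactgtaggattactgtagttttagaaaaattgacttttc
Y57G11C.22: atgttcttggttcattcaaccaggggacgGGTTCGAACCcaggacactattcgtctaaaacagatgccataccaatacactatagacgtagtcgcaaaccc
scc-2: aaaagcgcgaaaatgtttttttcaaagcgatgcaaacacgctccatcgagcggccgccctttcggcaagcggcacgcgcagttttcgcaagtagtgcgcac
brc-1: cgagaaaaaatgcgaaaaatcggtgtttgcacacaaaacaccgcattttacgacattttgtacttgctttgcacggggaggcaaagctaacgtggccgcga

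The strongest intronic peak lay in cyp-33C2, a gene of the cytochrome P450 family (chrV:2185555-2185800), with a signal of 821. Its signal was 363 in replicate 1 and 468 in replicate 2. The summit was in the fourth of 5 introns, 2198 bp from the host start, and the inverted repeat there has arms of 13 bp around a single base. Next was M01F1.8 (chrIII:3499898-3500159), where the signal was 630 in the combined list, 298 in replicate 1 and 357 in replicate 2. Its inverted repeat has arms of 11 bp around 16 bp. The summit in cmk-1, which encodes calcium/calmodulin-dependent protein kinase I, lay in the second of 6 introns (chrIV:1831300-1831448), and the tandem repeat shown above spans 91 bp of its window. Its signal was 616 in the combined list, 245 in replicate 1 and 335 in replicate 2. These 3 peaks ranked 25, 41 and 43 among all nuclear peaks and stood above all other intronic peaks.

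The peak in the fifth of 13 introns of larp-1, which encodes a La-related RNA-binding protein (chrIII:5014002-5014227) had a signal of 416, with 199 in replicate 1 and 220 in replicate 2. The peak in mdt-26, named for a subunit of the Mediator complex, was at 344 (chrII:5661772-5661950), with 149 in replicate 1 and 191 in replicate 2. Its window was 64.4% G and C, the richest of the 10 shown. In srt-52, of a family of serpentine chemoreceptors, the signal was 339 (chrV:53464-53575), with 152 in replicate 1 and 191 in replicate 2. In Y57G11C.22 the signal was 318 (chrIV:14838350-14838441), with 133 in replicate 1 and 175 in replicate 2. The tRNA box letters lie inside the called peak at srt-52. At Y57G11C.22 they lie in the window shown but outside the called peak. Neither summit had an annotated tRNA gene within 200 bp, as the selection requires. No tRNA pseudogene of RefSeq lay within 200 bp of any of the 280 summits. In stim-1, which encodes the calcium sensor of the endoplasmic reticulum, the signal was 337, with 151 in replicate 1 and 153 in replicate 2. In scc-2, which encodes the loader of the chromosome-binding cohesin complex, the signal was 285, with 126 in replicate 1 and 153 in replicate 2. The brc-1 peak, in the worm counterpart of the BRCA1 DNA repair gene, was at 261 and, unlike the 9 others shown, had the higher value in replicate 1, 151 against 102 in replicate 2.

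The rest of the 25 strongest were in Y47H10A.4 (signal 367), T02E1.2 (334), uba-5 (330), which encodes the enzyme that activates the ubiquitin-like UFM1, Y32F6A.5 (256), srw-100 (245), another serpentine receptor gene, sel-8 (237), a co-activator of Notch signalling, tpra-1 (233), spd-5 (232), a scaffold protein of the centrosome, Y39A1C.1 (201.2), hmt-1 (197), an ABC transporter for heavy metal tolerance, T22F3.2 (194), exos-7 (191), of the RNA exosome, zipt-15 (183), of the zinc transporter family, the collagen gene col-52 (182) and let-268 (180), a lysyl hydroxylase that modifies collagen. All 25 overlapped a peak in each replicate's own thresholded list. They were ranked by a combined signal that is close to the sum of the replicate values, so this overlap is not independent of the ranking. No shared function was tested among these hosts. Of the 25, 11 had an inverted repeat, a tandem repeat or a copy elsewhere in the genome at the summit, and over all 280 the number was 69. Peak width also set some of them apart: 269 of the 280 were 344 bp wide, as were 87.5% of the nuclear peaks, and of the 11 narrower ones 9 were among the 25 strongest. All 11 narrower peaks overlapped both own lists, as did 13.6% of the 280.

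Below these the signals were close together. The median over the 280 intronic peaks was 114 (95% interval 111 to 118 from order statistics), the quartiles were 102 and 132, and 208 lay between 90 and 150. For scale, the combined signal was 0.991 times the sum of the 2 replicate values at the median. Only 19 reached 200. The median of the replicate 1 signals was 53.4 over the 280, and that of replicate 2 was 61.6 over the 279 with a region in its ranked list. The remaining peak, in pax-3 (signal 101.5), had no overlapping region in replicate 2.

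**Figure D1:**
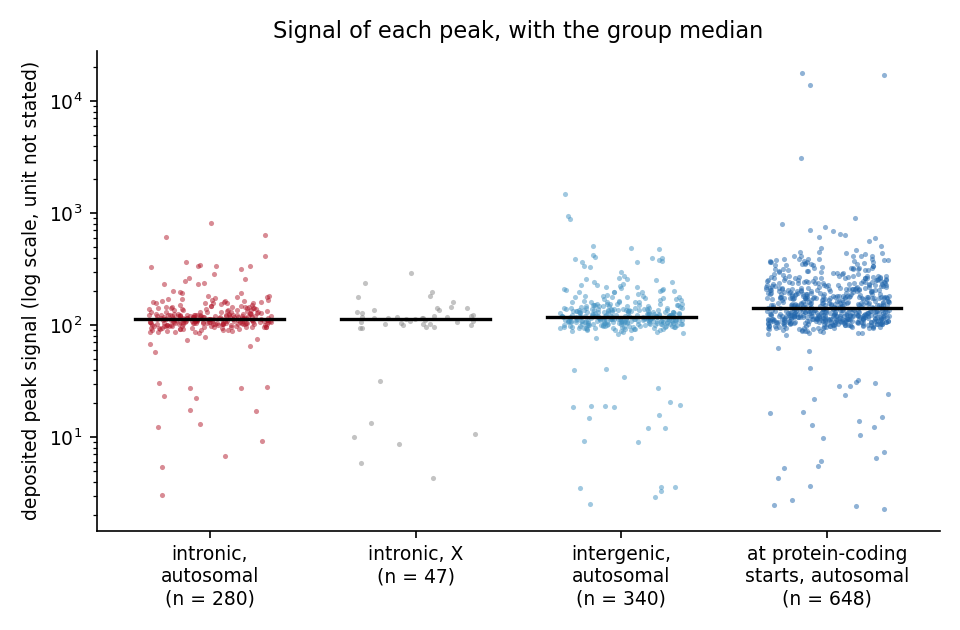
Deposited signal of each peak (log scale, unit not stated) for autosomal intronic peaks, X intronic peaks chosen by the same rule, autosomal intergenic peaks and autosomal peaks at protein-coding starts; each point is 1 peak, black lines are medians and sideways position has no meaning. The medians are 114, 113, 119 and 143, and the highest values are 821, 293, 1468 and 17955.

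Intronic and intergenic peaks away from starts had near signals, and peaks at starts had higher ones. The 340 autosomal peaks outside genes, chosen by the same distances, had a median of 119 (115 to 123). The 648 autosomal peaks within 500 bp of a protein-coding start, small RNA genes again left out, had a median of 143 (135 to 152), and their interval did not meet that of the intronic peaks. At the 47 intronic peaks on X the median was 113 (105 to 119). Peaks in 1 genome are not replicates of a condition, and no test was made of these or of the other differences between sets of regions described here; intervals cover counting or ranking error only.

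The replicates called few of these peaks on their own. Of the 280, 51 (18.2%) overlapped by at least 1 bp a peak of replicate 1's own thresholded list, where 37.7% of the 2213 nuclear peaks did. For replicate 2 the number was 80 (28.6%), against 46.1% of the nuclear peaks. Both own lists held 38 (13.6%, exact 95% interval 9.79 to 18.1), against 30.7% of the nuclear peaks, 38.4% of the peaks at starts and 17.1% of the intergenic ones. Neither held 187 (66.8%), against 46.9% of the nuclear peaks. The other combined list of the authors held 227 (81.1%), against 86.4% of the nuclear peaks. The shares in each own list, in both and in the other combined list were all below those of the nuclear peaks. Applied to a single replicate's own list, the same positional rule found 64 peaks in replicate 1 and 100 in replicate 2, in place of 280.

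**Figure D2:**
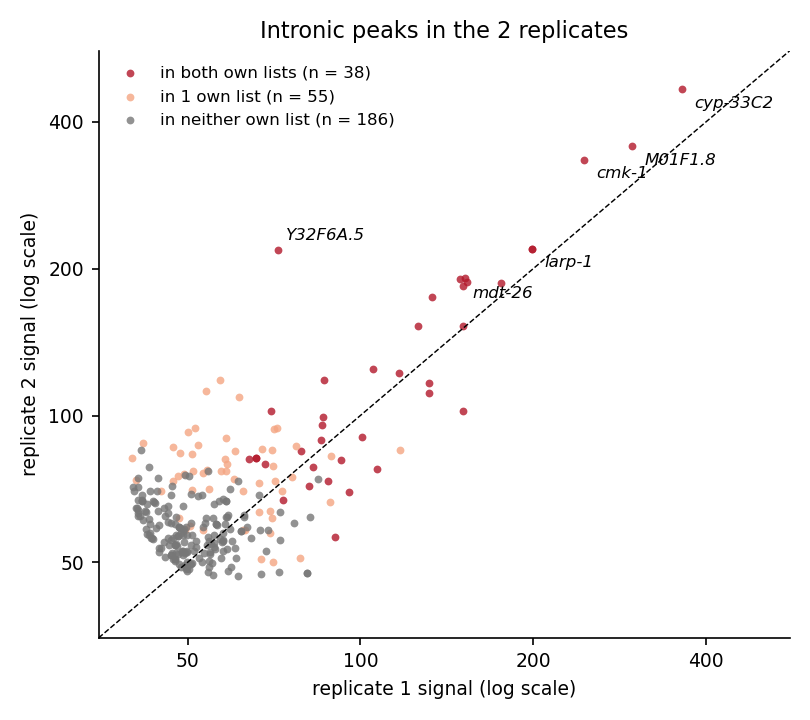
Signal of each intronic peak in replicate 1 (horizontal) and replicate 2 (vertical), both on log scales, coloured by how many own lists hold the peak; the dashed line marks equal values, and the pax-3 peak, which lacks a replicate 2 region, is not drawn. Peaks in both own lists (n = 38) run up to cyp-33C2 at 363 and 468, while most peaks in neither list form a cloud near 50 in both.

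Replicate 2 had higher signals in general: over all autosomal peaks the median was 60.4 in replicate 1 and 71.0 in replicate 2. It gave the higher signal at 197 of 279 intronic peaks, with a median ratio of replicate 2 to replicate 1 of 1.14. The highest ratio, 3.05, was at the stronger of 2 peaks in Y32F6A.5 (71.7 in replicate 1 and 218 in replicate 2), and the next belonged to mek-2, which encodes a MAP kinase kinase (41.8 in replicate 1 and 87.8 in replicate 2). Across the 279 peaks the ranks of the 2 replicates went together with a Spearman rho of 0.296, and across all nuclear peaks with one of 0.660. Both replicates entered the combined list, so these coefficients describe peaks already chosen on both. Peaks in both own lists had a median signal of 199, those in 1 list 132 and those in neither 107. The combined signal is close to the sum of the replicate values, so these medians are not independent of the lists. The exceptions below a signal of 150 that both lists held were F23B12.4 (146), pad-1 (145), eif-3.I (139), one peak in Y65A5A.2 (137), the homeobox gene unc-62 (107) and weaker peaks of larp-1 and col-52 that overlap stronger ones; these names were chosen with the values in view.

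Some weak entries were shoulders of other peaks. Of the 280, 33 (11.8%) overlapped another peak of the same list, against 10.1% of the nuclear peaks, and at 31 of the 33 the nearest other summit was 190 to 230 bp away. All 14 with a signal under 50 were among the 33. Their single-replicate values are those of the strongest overlapping region, and so repeat the neighbour's: the second larp-1 peak (chrIII:5014156-5014282) had a combined signal of 64.9 but carries the 199 and 220 of the first. The lowest signal, 3.01, was that of the second acs-13 peak, an acyl-CoA synthetase gene. Without the 33, the median signal of the other 247 was 115.

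The 280 peaks had 242 distinct hosts, of which 31 held more than 1 peak and 69 peaks together. The gene with most was lit-1, which encodes the Nemo-like kinase of the Wnt pathway that acts in asymmetric divisions. Its 4 peaks had signals of 105, 132, 23.4 and 95.6 in order along the gene and lay 11203, 15760, 16658 and 17335 bp from its start. In replicate 1 the 4 had 40.9, 54.0, 42.3 and 49.0, and in replicate 2 63.2, 77.5, 58.4 and 65.2. The third overlaps another peak of the list that is not one of the 4, so its replicate values may be those of that peak. None of these values stood out in either replicate, and only the second peak was in an own list, that of replicate 2. Over the 280, 66.8% were in neither own list.

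Of the 5 hosts with 3 peaks, larp-1 had the strongest, and the one not yet described (147) was in the intron before it. In srw-100 all 3 lay in the fifth intron, with signals of 114, 245 and 101.2, and all 3 windows were wholly soft-masked as repeats in the genome file. The peaks of lsy-22, a Groucho-related co-repressor gene, were all in the first intron, of 11392 bp, with signals of 120, 149 and 95.7. Those of mnk-1, a kinase that acts on the translation factor eIF4E, were in the second intron, at 172, 135 and 27.7, the last 2 overlapping. In zfp-1, a PHD finger protein of chromatin, 2 were in the fourth intron (105 and 111) and 1 in the ninth (122). No shared function of these hosts was tested.

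The 25 hosts with 2 peaks fell into pairs that overlap and pairs that do not. In 9 of them, Y43F8B.2, acs-13, apd-3, col-52, ncl-1, npr-37, prhg-1, sqst-3 and tol-1, both peaks overlapped another peak, with the 2 summits of each gene next to each other. The 16 others were Y111B2A.12, Y32F6A.5, Y48C3A.5, Y51F10.4, Y65A5A.2, ell-1, hmr-1, hmt-1, kal-1, kin-1, let-526, lev-11, lin-17, mbk-2, sea-2 and unc-43. In hmt-1 the signals were 161 and 197, in introns 11 and 10, and both peaks were in both own lists. The kin-1 peaks, in the gene for the catalytic subunit of protein kinase A, lay 7524 bp apart in intron 4, of 21230 bp, the longest of any host; their signals were 113 and 136. In hmr-1, the cadherin of embryonic cell junctions, the signals were 109 and 102 and the summits 24737 bp apart, and the first lay 38781 bp from the host start, the greatest such distance. The shortest host intron, of 86 bp, was the second in dhs-16 (signal 122).

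Intronic peaks lay in long introns. The median host intron was 1996 bp (1631 to 2625), whereas the median autosomal base that meets the same positional rule, called eligible here, lay in an intron of 1035 bp; there were 23.2 Mb of eligible bases. Taking the host intron as the gap between the exons of all genes merged gave 1612 bp. Per Mb of eligible intron, introns of up to 500 bp had 3.54 peaks (2.19 to 5.41, exact Poisson interval; 21 peaks), those above that and up to 1000 bp had 10.5 and those up to 2000 bp had 13.0. The density was 17.7 in the class up to 5000 bp, 21.5 in that up to 10000 bp and 24.4 (15.6 to 36.3; 24 peaks) above 10000 bp. It was thus higher in each longer class, and the intervals of the shortest and the longest class did not meet. Signal did not follow this order clearly: the median was 110 (105 to 115) in the 77 peaks of introns up to 1000 bp, and 115 (109 to 121) in the 70 of introns over 5000 bp.

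**Figure D3:**
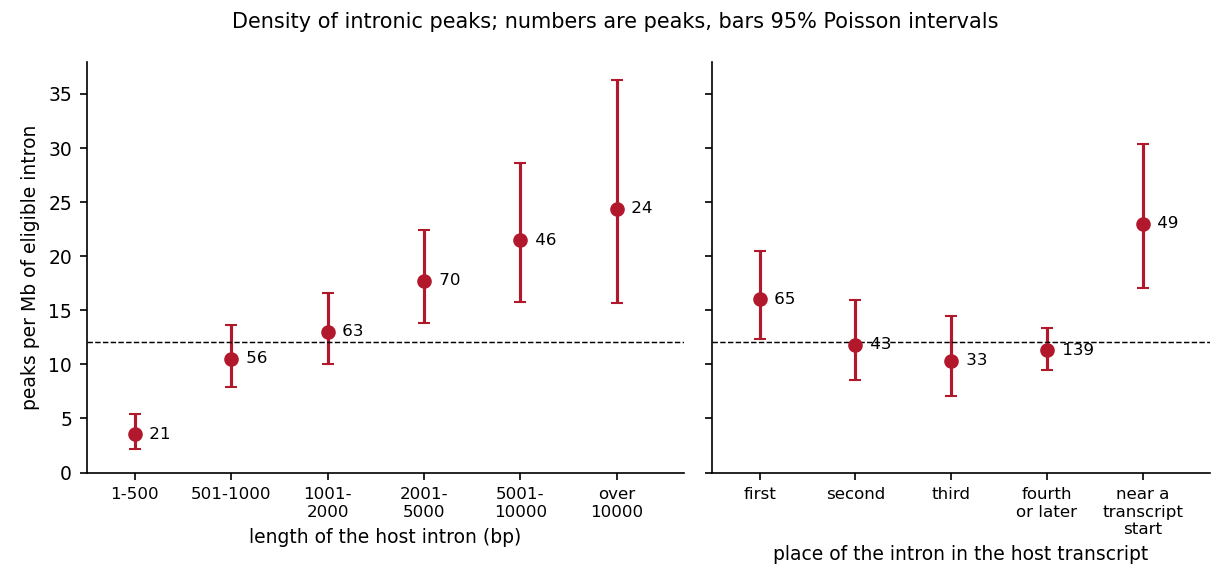
Intronic peaks per Mb of eligible intron by length of the host intron in bp (left) and by its place in the host transcript, with peaks within 500 bp of a protein-coding transcript start as a further class (right); points are densities, bars 95% Poisson intervals, numbers peaks, and the dashed line the density over all eligible bases, 12.1. Density is 3.54 in the shortest and 24.4 in the longest introns, and 23 near transcript starts.

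First introns held 65 peaks (23.2%, 18.4 to 28.6) and 17.5% of the eligible bases, a density of 16.0 peaks per Mb (12.4 to 20.4). Those in the second place had 11.8 per Mb, those in the third 10.3 and later ones 11.3, and the 4 intervals overlapped. Among the 25 strongest, first introns held the peaks of T02E1.2, uba-5, scc-2, sel-8, spd-5, Y39A1C.1, exos-7 and col-52. The intron order is that of the transcript with the longest coding sequence. Counted as the first intron of any transcript, the number was 111 (39.6%), with 27.0% of eligible bases. First introns with a peak were long, with a median of 4345 bp against 1695 bp in the later ones. The 500 bp limit leaves out bases near gene starts, and with them short first introns there. Lengths over eligible bases were not compared by place, so how much of the difference comes from the rule was not tested. GC content at the summits in first introns was 49.5% ± 9.55 (SD, 65 peaks) against 45.4% ± 8.48 (215 peaks) in later ones.

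The rule measures distance to gene starts, and a gene can have further transcript starts inside its span. Of the 280, 49 (17.5%, 13.2 to 22.5) lay within 500 bp of the start of some protein-coding transcript, as did 9.19% of eligible bases; the density there was 23 per Mb (17.02 to 30.4). The strongest of the 49 was T02E1.2, whose summit was 233 bp from a transcript start. At spd-5 that distance was 70 bp, at scc-2 146 bp, at T22F3.2 170 bp and at uba-5 266 bp. Both own lists held 12 of the 49 (24.5%, 13.3 to 38.9) and 26 of the other 231 (11.3%, 7.49 to 16.1). The median signals were 115 in the 49 and 114 in the 231. For all 280 the median distance from the host start was 3898 bp, from the nearest protein-coding start 2974 bp, from the nearest transcript start 1415 bp and from the nearest exon 346 bp.

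Of the 242 hosts, 15 (6.198%) had a conservative summit within 500 bp of their own start, and 227 did not. Over all 14270 protein-coding genes with eligible intronic bases the share was 5.23%, so the share of hosts was near that of genes in general. Among the 15 were spd-5, with 232 in the intron and 614 at the start, T02E1.2, with 334 in the intron and 563 at the start, and daf-19, an RFX factor gene for ciliated neurons, with 108 in the intron and 248 at the start. The intron had the higher signal at mdt-26 (344 in the intron, 214 at the start), brc-1 (261 and 172) and egl-27 (154 and 109). Start summits of hosts were taken here without leaving out those near small RNA genes. The start summits of T02E1.2 and egl-27 lay within 200 bp of a tRNA, snoRNA, snRNA or ncRNA gene. Their start signals therefore cannot be assigned to the host start alone. The positional limits cut through a continuous spread of distances. The nearest peak inside the 500 bp limit was in sqst-3 (502 bp, signal 96.9) and the nearest outside it in lin-13 (485 bp, 108). Inside the 200 bp limit to small RNA genes the nearest was in F23B12.4 (246 bp, 146), and outside it in trd-1 (190 bp, 111). Other classes of non-coding genes lay within 200 bp at 5 peaks: a pseudogene at brc-1, microRNA genes at nurf-1 and Y38F2AR.10, a piRNA gene at jac-1 and an antisense RNA gene at fos-1.

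The chromosomes differed by less than 2 times in density. Chromosome I had 79 peaks, or 15.2 per eligible Mb (12.1 to 19.0), II had 55 or 14.1, and III had 58 or 12.8. Chromosome IV had 43, or 9.06 (6.56 to 12.2), and V had 45, or 9.35. The X chromosome, by the same rule, had 47, or 10.5. The intervals of I and IV met only at their ends. The strongest peak was in Y47H10A.4 on I, mdt-26 on II, M01F1.8 on III, cmk-1 on IV and cyp-33C2 on V, and the median signal was between 108 and 116 on every autosome.

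Summits were richer in G and C than the introns around them. The windows of 50 bp to either side of the 280 summits averaged 46.3% ± 8.89 (SD over peaks). Windows of the same size centred 250 bp to either side averaged 39.0% ± 9.61, and the 399 of those 560 that lay wholly in eligible intron 38.5% ± 9.60. All eligible bases together had 31.9%. The range ran from 20.8% in png-1 to 75.2% in F01D5.10. Intergenic summits averaged 46.0% ± 9.07 and summits at starts 47.2% ± 8.02. Signal and GC content went together weakly over the 280 (Spearman rho 0.237). Peaks in both own lists had 49.9% ± 7.81, those in 1 list 48.6% ± 8.77 and those in neither 44.9% ± 8.84. How sequencing or peak calling varied with GC content was not tested.

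**Figure D4:**
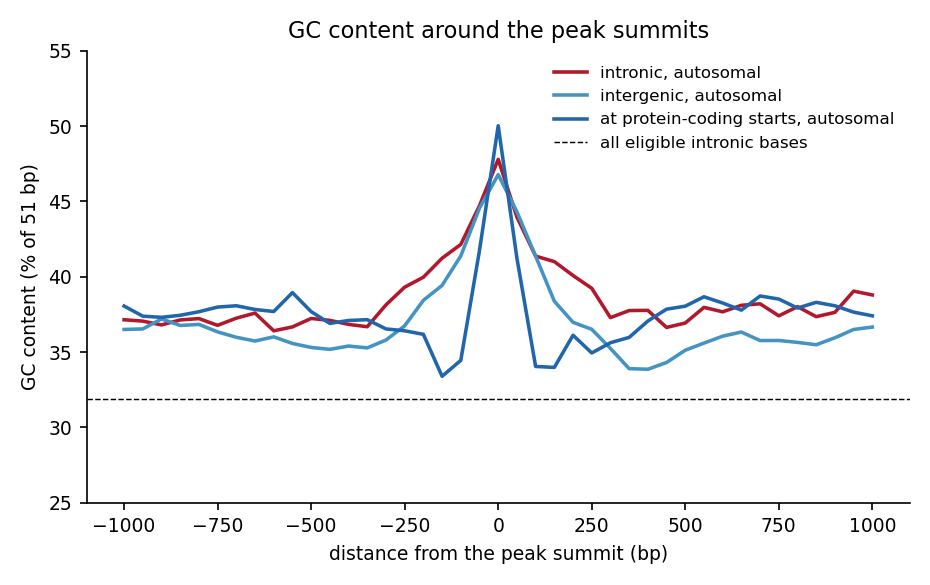
Mean GC content in windows of 51 bp against distance from the peak summit in bp, for autosomal intronic, intergenic and start peaks. The dashed line is the GC content of all eligible intronic bases, 31.9%. Windows away from the summit were not limited to introns and can hold exons, which the dashed line leaves out. At the summit the means are 47.8%, 46.8% and 50.02%, and 100 bp upstream on the genome 42.1%, 41.4% and 34.5%, so the intronic and intergenic rises are broader than that at starts.

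At least 3 CG dinucleotides were present in 238 intronic windows (85.0%, 80.3 to 89.0), against 63.9% of the flanking windows and 93.4% of the windows at starts. Runs of 7 T on either strand were found in 10% of the intronic summits, 21.6% of the flanks and 34.1% of 19380 windows tiled over eligible introns. The word TATAAA was in 1.79%, 6.96% and 12.2% of the same 3 sets, and TTTGAA, the core of the CHR element of cell cycle promoters, in 11.8%, 21.2% and 36.03%. These words are rich in A and T, and GC content differed between the sets in the opposite order. The tRNA A box letters were in 10 intronic windows (3.57%), against 1.79% of flanks and 1.15% of tiled windows, and in 5.29% of intergenic windows; the hosts were srt-52, tpra-1, Y6B3B.1, H10E21.5, cyp-42A1, irld-63, dmsr-3, spe-43, snf-7 and egl-8. The B box letters were in only 3, Y57G11C.22, ptr-12 and Y43F8B.2 (1.07%), against 1.25% of flanks and 0.557% of tiled windows. No window held both sets of letters as spelled, and other spellings of the boxes were not searched. The srt-52 window also holds GTTCAATTC, the B box letters with A in place of the inner G.

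Of the other motifs searched on both strands, GAGAGAG was in 21 intronic windows (7.50%), against 2.68% of flanks and 1.08% of tiled windows, and in 10.3% of intergenic windows. GGGCGG, the GC box, was in 5.71%, against 3.57% of flanks and 10.8% of windows at starts. The E-boxes CACGTG and CAGCTG were in 6 windows each, against 1.43% and 2.32% of flanks. GATAAG, the letters read by GATA factors, was in 6 (2.14%) against 3.39% of flanks, TAATTA of homeodomains in 2.50% against 1.964%, and TTCCCGC of E2F in 3.21% against 1.964%. TGTTTGC, a forkhead word, was in 3.21% against 1.61%, and TGTTTAC in none of the 280 against 0.714%, TGANTCA of AP-1 in 0.714% against 1.25%, CTCTTCT in 1.79% against 2.50% and TGACGTCA in 0.714% against 0.893%. None of these was in more than 1 in 10 of the intronic windows. A match says only that the letters are there.

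Words of 6 bases were ranked on chromosomes I, II and III by how far their share at the intronic summits exceeded that in the flanks, and then read on IV and V. CGCAGA was at 10.4% of summits and 3.65% of flanks on the first 3 (192 peaks). On IV and V, with only 88 peaks, it was at 9.09% of summits and 2.84% of flanks. Summits had more G and C than flanks (46.3% against 39.0%). How much of the excess of words rich in G and C, such as CGCAGA, comes from that was not tested. AGAGAG, which overlaps GAGAGAG, was at 13.0% and 7.03% on the first 3 and at 17.05% and 7.95% on the other two. The word with the largest excess on the first 3, GCACAC (10.9% and 3.39%), was at 4.55% and 3.41% on the other two. At starts the leading word was GCGCAC, at 17.9% of summits and 0.943% of flanks, and it was not among the 10 leading intronic words. At intergenic summits the leading word was GAGAGA, at 24.1% and 8.33%. The 28 intronic peaks with CGCAGA had a median signal of 132 (123 to 146) and a mean GC content of 48.7%. Both own lists held 9 of the 28 (32.1%, 15.9 to 52.4), against 13.6% of the 280 and 30.7% of the nuclear peaks. The 28 include peaks on I, II and III, where the word was picked. They include larp-1 and M01F1.8, where the word is read on the reverse strand as TCTGCG.

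Inverted and tandem repeats were each present in a minority of the windows. An inverted repeat with perfect arms of at least 10 bp, at most 40 bp apart, was in 16 intronic windows (5.71%, 3.30 to 9.11), in 2.86% of flanks, 6.63% of tiled intron windows and 2.62% of windows at starts. The longest arms, of 19 bp, were in pqn-41 (signal 121) and the next, of 18 bp, in snf-7 (91.0). A tandem repeat of period up to 50 bp was in 20 (7.14%, 4.42 to 10.8), in 5.54% of flanks, 2.07% of tiled windows, 12.1% of intergenic windows and 1.39% of windows at starts. Besides cmk-1, those with the strongest signals were Y47H10A.4 (period 11 bp), Y32F6A.5 (25 bp) and col-52 (15 bp). Both own lists held 7 of the 20 (35%, 15.4 to 59.2), against 13.6% of the 280 and 30.7% of the nuclear peaks. Soft-masked sequence made up on average 39.2% of the 280 windows, against 55.2% of eligible bases.

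A copy elsewhere in the genome, meaning an alignment of at least 80 bp and 90% identity more than 1000 bp away, was found for 54 intronic windows (19.3%, 14.8 to 24.4). The share was 16.1% in the flanks, 16.0% in tiled intron windows, 28.2% in intergenic windows and 6.79% at starts. The 54 had a median signal of 123 (114 to 141) against 112 (109 to 116) in the other 226, and 13 of the 54 (24.1%) were in both own lists against 25 of the 226 (11.1%). Over 100 copies were found for 6 windows: 2 in col-52 (913 and 699 copies), 2 in Y32F6A.5 (422 and 241), 1 in unc-34 (397) and 1 in snf-7 (136). How reads that match several places were treated is not stated in the sources used here, so a signal at these 6 cannot be assigned to 1 copy. The same limit can apply at any of the 54 windows with a copy. Those include 9 of the 25 strongest peaks, among them cyp-33C2 and stim-1. The inverted repeat of cyp-33C2 lies in a window with 2 copies, while M01F1.8 and cmk-1 had none.

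Hosts were set beside 15 lists of genes. Over all protein-coding genes, 242 of the 14270 with eligible intronic bases were hosts (1.696%), at 12.1 peaks per eligible Mb. Developmental signalling had 8 hosts of 57 (14.04%), with 9 peaks and 35.5 per eligible Mb (16.2 to 67.3). They were daf-2, the insulin receptor (signal 124), daf-16, its FOXO transcription factor (103), lin-12, a Notch receptor (112), apx-1, a Notch ligand (108), the Frizzled receptors lin-17 (124 and 122) and mig-1 (115), mek-2 (120) and ptc-3, a Patched relative (110). At daf-2 the signal was 72.5 in replicate 1 and 63.3 in replicate 2. All 8 genes were near the median of the 280. Of their 9 peaks only that of mek-2 was in an own list, that of replicate 2. Over the 280, 66.8% were in neither own list, and 9 peaks are too few to set beside that share.

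Embryonic lineage regulators had 3 hosts of 40, egl-27 (154), which encodes a relative of the metastasis-associated proteins, nob-1 (116), a posterior Hox gene, and lit-1, and 6 peaks. Axon guidance and cell adhesion had 5 of 38: jac-1 (112), a p120-type catenin, hmr-1, efn-4, a divergent ephrin, vab-1, an Eph receptor, and unc-34, a relative of Ena. Chromatin regulators had 2 of 43, nurf-1 (160), of the NURF remodelling complex and held by both own lists (82.8 in replicate 1 and 78.5 in replicate 2), and zfp-1. Polarity and division had spd-5 and cyd-1, a cyclin D, of 34. Body wall muscle had lev-11 (124), the tropomyosin gene, and dys-1, the dystrophin gene, of 32. Neuronal function had egl-8 (86.2), a phospholipase C, and unc-43, of 38.

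Single hosts were found for neuronal fate regulators, egl-44 (115) of 27, for basement membrane and matrix, unc-52 (112) of 22, which encodes perlecan, for the actin cytoskeleton, anc-1 (111) of 33, for the ztf zinc finger genes, ztf-6 (118) of 20, besides ztf-22, whose span shares a peak with the host Y48C3A.5, for splicing and RNA-binding, larp-1 of 31, and for translation, eif-3.I (139) of 46. The eif-3.I peak, in the gene for a subunit of initiation factor 3, was in both own lists, with 68.1 in replicate 1 and 79.6 in replicate 2. Of 27 nuclear hormone receptor genes and 34 trafficking genes on these lists none was a host. Genes differ in intron length and number, and the counts of most lists are small. The density interval of developmental signalling was above that of all genes (10.7 to 13.6). So was that of embryonic lineage regulators (18.1 to 107), where 4 of the 6 peaks were in lit-1 and are counted as if independent. The intervals of all other lists met that of all genes, also for splicing and RNA-binding at 39.6 per Mb (8.17 to 116). The lists were chosen with earlier results of these data known, so these intervals are a description and not a test.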

How the data were processed

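The values are from peak lists that the authors deposited on assembly ce11, per the labels: for each replicate a ranked and a thresholded list, and for both replicates combined 2 thresholded lists, thresholded by the irreproducible discovery rate. The aligner, peak caller and depth are not given in the sources used here. The signal is the value the authors deposited for each peak; its scale is not stated. The score, also deposited by the authors, starts at 830 in the conservative list and was not used to choose peaks. Summit offsets were read as deposited. The combined ranked lists hold 16 columns of replicate values without sample names, which were not used.

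Genes came from Ensembl release 115 (WBcel235) and bases from the RefSeq genome of the same assembly. A replicate's signal is that of its strongest region overlapping the peak. Repeat and motif searches used Python 3.11.15, and copies blastn 2.17.0 (E-value 1e-05). The inverted and tandem repeat searches were tested on made-up sequences, and the positional rule on positions drawn from the annotation. The motif and copy searches were not tested in this way. Tandem repeats needed a score of at least 30 (1 per match, -2 per mismatch between a base and the base 1 period on). Shares have Clopper-Pearson intervals, densities Poisson intervals and medians order-statistic intervals, at 95%; no test was run, because the design has 1 group of 2 replicates. Named genes are the hosts of the 25 strongest peaks, hosts with 2 or more, the strongest host on each chromosome and of each list, and hosts at the limits; other names, such as those holding a motif or a copy, were picked with the values in view. The members and lists were chosen with earlier results of these data known. Alternatives were the other combined list, single replicates, other distances and windows, and subsets.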

Additional observations from a re-analysis of the deposited data

How the results depend on the processing

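Leaving out a replicate, by applying the rule to the own list of the other, gave 64 to 100 peaks in place of 280, a median signal of 79.4 to 82.0 on that list's own scale, 38% to 62.5% in both own lists (each peak being in 1 by construction), 24.0% to 26.6% near a transcript start and a GC content of 46.6% to 47.7%. Among the 500 strongest conservative peaks there were 19, with a median signal of 330.1, 100% in both lists, 31.6% in first introns, a median of 2556 bp to the host start, 26.3% near a transcript start and 48.9% GC. In the 38 in both own lists, a subset added after seeing the data, the median signal was 199, first introns held 31.6%, the distance was 2862 bp, 31.6% were near a transcript start and GC was 49.9%. The other combined list gave a median signal of 111. Requiring the whole peak outside exons gave an intron median of 2629 bp and 9.26% near a transcript start; merged exons gave 1612 bp. Requiring over 1000 bp to a start gave 4734.5 bp to the host start. The first intron of any transcript held 39.6%. GC was 47.8% in windows of 51 bp and 44.7% in windows reaching 100 bp to either side. The other alternatives stayed within the 95% intervals, or within 1.5 times for the count of peaks. The cause of these differences was not tested. No paired analysis was possible because there is 1 group. Depth is unknown, so what it limits cannot be stated.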
